A study of Rattus norvegicus with 24 samples.

Results

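Cytokines other than those of the interleukin-1 pathway, and the receptors that bind them, were followed in the lung and blood of rats that had inhaled crystalline silica. Probes were taken by their symbol: interleukins and their receptors, tumour necrosis factor (TNF) with the Tnfsf ligands and Tnfrsf receptors, colony stimulating factors, the leukaemia inhibitory factor and oncostatin M family, and the interferon receptors, with interleukin-1, its receptors and antagonist, Il18, Cxcr2, Csf3r and Tnfrsf17 left out. The rule found 84 of 21792 probes, for 83 genes, since Il18rap had 2 probes; accessory chains such as Il1rap stayed in. They were 20 interleukins, 33 interleukin receptors and binding proteins (among them Cxcr1, the chemokine receptor once named as an interleukin-8 receptor), 9 TNF ligands, 11 TNF receptors, 3 colony stimulating factors, 4 members of the leukaemia inhibitory factor and oncostatin M family, 3 interferon receptor chains and Psmg2, a proteasome assembly chaperone that entered only through an old name.

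RNA was measured on Illumina BeadChips, 1 array per tissue and rat. The 4 groups were lung and blood of 6 rats that inhaled crystalline silica at 15 mg/m3, 6 hours per day for 5 days, and lung and blood of 6 rats that inhaled air. All were male rats of the CDF Fisher 344 strain, and were killed 32 weeks after exposure ended. The labelled age is 3 months; whether at exposure or at death is not said. Globin transcripts were depleted from blood RNA, per the labels, which repeat the blood protocol beside the lung samples.

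Cytokines are secreted or membrane-bound proteins by which immune, epithelial and stromal cells signal to each other. Many interleukins and the interferons act through paired receptor chains that carry Janus kinases (JAK) and activate STAT transcription factors, whereas most TNF receptors recruit TRAF adaptors and activate NF-kB or, where they carry a death domain, cell death. Soluble receptors and decoys bind a ligand without passing on its signal. Inhaled silica is taken up by alveolar macrophages and is known for long-lasting inflammation and fibrosis of the lung.

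Each array detected 11013 to 11733 probes in lung and 7498 to 8469 in blood, with a median of 36 to 42 beads per probe. The lung marker genes Sftpc, Sftpb, Sftpa1 and Scgb1a1 were detected in all 6 air lungs and in none of the 6 air blood samples, and Alas2 and Ppbp were brighter in air blood than in air lung, although the probe for the neutrophil gene S100a9 was detected in neither. The first principal component of the lung arrays (49.8% of their variance) ran between 4.22 and 15.8 in silica rats, against -13.3 to -6.10 in air rats. That of the blood arrays held 44.9%, and 3 arrays stood apart on it: silica replicate 6 at -13.5, with air replicates 2 and 6 at -18.6 and -9.38, while the others lay between 0.883 and 6.12. The count of blood members with a small unadjusted p, and the counts between tissues, are therefore also given without these 3 arrays. Folds of single blood members are given with all arrays only.

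Many classical cytokines gave no signal above background on this platform. A probe counted as detected on an array where its detection p-value was under 0.05. In lung, 34 members were detected on all 12 arrays (40.5%, against 44.2% of all probes) and 26 on none (31%, against 35.5%). In blood, 24 were detected on all 12 (28.6%, against 28.4%) and 36 on none (42.9%, against 49.5%). Of the 20 interleukins, 11 were undetected on all 24 arrays, among them Il6, an inducer of the acute phase response, Il4 and Il13 of type 2 immunity, Il10, which dampens inflammation, and the T cell growth factor Il2. The granulocyte factor Csf3, the leukaemia inhibitory factor Lif and Tnfsf11, the ligand that drives osteoclasts, were undetected as well, making 23 members in all. The share of all probes undetected on all 24 arrays is not given here. In each tissue alone, the share of members detected on no array was below that of all probes. The probe for Tnf itself was detected in 2 of 6 silica lungs and 0 of 6 air lungs, and in 1 of 6 silica and 1 of 6 air blood samples. An undetected probe does not show that the gene is silent, as the S100a9 probe illustrates.

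Members detected on 6 or more of a tissue's 12 arrays were tested: 44 of 84 in lung, where 51.8% of all probes passed, and 31 in blood, where 36.1% did. Of these, 28 were tested in both tissues, 16 in lung only and 3 in blood only, and 37 in neither. Values are background-corrected, quantile-normalized log2 signals. Members detected on no lung array had values of 6.38 to 6.49, so values a little above this range lie near the floor, where a fold change is compressed. This floor comes with the background correction used here, which is fitted from the detection p-values and adds an offset of 16. In air replicate 1, for example, Il1rl2 had a raw lung signal of 43.4 and a value of 6.39, above its raw signal on the log2 scale. Those p-values were at odds with the signal in some rows, described below, and what this did to the floor was not tested. Differences were tested with limma, two-sided, with Benjamini-Hochberg adjustment over all probes tested in the tissue and a threshold of 0.05. Errors beside a log2 fold change are standard errors, and n = 6 rats per group.

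In lung, 5 of the 44 tested members were higher after silica and 3 were lower, which is 18.2% of those tested, against 16.1% of all 11285 probes tested (7.59% higher and 8.53% lower). The share of members that changed was thus near that of all probes. At an unadjusted p under 0.05 there were 18 members (40.9%, against 28.8%). The median log2 fold change was 0.0035 over the members and -0.0057 over all probes tested. The higher members were the TNF family ligands Tnfsf13 and Tnfsf14, the TNF receptors Tnfrsf4 and Tnfrsf21 and the interferon-gamma receptor chain Ifngr2; the lower ones were the interleukin Il15, the interleukin-6 receptor Il6r and the decoy receptor Tnfrsf11b. The largest of these 8 differences was 1.40-fold on the background-corrected values.

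Among the TNF ligands, 2 of 5 tested rose and none fell (40% called, against 16.1% of all probes tested). With so few probes per class such shares are coarse. Tnfsf13, also called APRIL, a survival factor for B cells and plasma cells, was the brightest of the members that changed. Its log2 signal was 10.92, 11.06 and 11.11 in silica lungs (lowest, median and highest) and 10.47, 10.76 and 10.87 in air lungs. Every silica lung lay above every air lung, and the fold was 1.26 (log2 fold change 0.33 ± 0.069, limma adjusted p = 0.00777). Tnfsf14, also called LIGHT, binds Tnfrsf14 and the lymphotoxin beta receptor and costimulates T cells. It was dim, with 6.61, 6.64 and 6.70 in silica lungs and 6.55, 6.58 and 6.61 in air lungs. Silica replicate 6 fell just below the highest air lung and the other 5 silica lungs lay above it. Its fold was 1.05 (0.065 ± 0.019, limma adjusted p = 0.0408), and the call was lost in 9 of 12 fits that left out 1 rat (adjusted p up to 0.0866). The other tested ligands did not pass: Tnfsf10, or TRAIL, a death ligand, had a log2 fold change of -0.15 ± 0.085, Tnfsf12, or TWEAK, -0.04 ± 0.11 and Tnfsf15 -0.03 ± 0.015.

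Of the 9 TNF receptors tested, 2 rose, 1 fell and 6 did not pass (33.3% called, against 16.1% of all probes tested). Tnfrsf4, or OX40, a costimulatory receptor of activated T cells, was at 6.57, 6.61 and 6.69 in silica lungs and at 6.49, 6.50 and 6.54 in air lungs. The groups did not overlap, the probe was detected in 6 silica and 4 air lungs, and the fold was 1.08 (0.11 ± 0.020, limma adjusted p = 0.00419). Tnfrsf21, a receptor with a death domain, was at 6.61, 6.63 and 6.69 in silica lungs and at 6.54, 6.57 and 6.59 in air lungs. It too separated the groups, with a fold of 1.05 (0.070 ± 0.015, limma adjusted p = 0.0103). Both probes lay near the floor, and the size of the difference there depended on the background correction. Without it the log2 fold change was 0.41 for Tnfrsf4, 0.23 for Tnfrsf21 and 0.20 for Tnfsf14, each over 1.5 times the value above and each past the threshold.

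Tnfrsf11b, or osteoprotegerin, is a soluble decoy for Tnfsf11 and Tnfsf10. It was at 8.41, 8.76 and 9.12 in silica lungs and at 8.88, 9.22 and 9.57 in air lungs. The ranges overlapped, and the mean was 1.40-fold lower after silica (log2 fold change -0.49 ± 0.14, limma adjusted p = 0.0336). This was the largest difference among the tested members on these values, whereas without background correction that of Tnfrsf4 (0.415) was slightly larger than that of Tnfrsf11b (-0.410). The call was lost in 7 of 12 fits that left out 1 rat, with adjusted p from 0.0167 to 0.0719. Tnfrsf12a, the receptor of Tnfsf12, is named here after its values were seen because it lay just outside the threshold: it was at 7.10, 7.26 and 7.60 in silica lungs and at 6.87, 7.08 and 7.18 in air lungs (0.25 ± 0.082, limma adjusted p = 0.0556), and it passed with 4 of the alternative settings for normalization, filter or variance model. Tnfrsf1a, the main receptor for TNF, was bright and had a log2 fold change of 0.10 ± 0.097.

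The interferon receptors were all detected, and 1 of 3 rose (33.3% called, against 16.1% of all probes tested). Ifngr2, the chain of the interferon-gamma receptor that carries JAK2, was at 9.49, 9.57 and 9.78 in silica lungs and at 9.19, 9.31 and 9.42 in air lungs. The groups did not overlap, and the fold was 1.23 (0.30 ± 0.055, limma adjusted p = 0.00429). Its partner Ifngr1, the ligand-binding chain, had a log2 fold change of -0.05 ± 0.047 with overlapping groups, and the type I interferon receptor chain Ifnar1 had 0.04 ± 0.015; neither passed.

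Of 5 tested interleukins 1 fell, and of 17 tested interleukin receptors 1 fell, with none higher. The 2 lower ones were 9.09% of these 22, near the 8.53% of all probes that were lower. Higher calls appeared in other settings: Il22ra2 without background correction (0.13, limma adjusted p = 0.0283), and Il22ra2 and Il24 with no filter on dim probes (limma adjusted p = 0.0113 and 0.0347). The first of these used the detection filter, which Il22ra2 met only through the silica lungs, so that p is a description. Il24 did not meet the filter. It lay at the floor, with 6.44 to 6.49 in silica lungs and 6.42 to 6.46 in air lungs. Il15, which sustains natural killer cells and memory CD8 T cells, was at 8.50, 8.66 and 8.83 in silica lungs and at 8.92, 8.98 and 9.33 in air lungs. Every silica lung lay below every air lung, and the mean was 1.32-fold lower after silica (-0.40 ± 0.086, limma adjusted p = 0.0087). Il6r, the ligand-binding chain of the interleukin-6 receptor, was at 7.29, 7.42 and 7.48 in silica lungs and at 7.51, 7.56 and 7.63 in air lungs. It also separated the groups, 1.12-fold lower after silica (-0.16 ± 0.030, limma adjusted p = 0.00423). The signal-transducing partner of Il6r, Il6st, and Il6 itself were undetected on every lung array.

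Il22ra2, a soluble decoy for interleukin-22, was detected in 6 of 6 silica lungs and 0 of 6 air lungs. It was at 6.50, 6.52 and 6.53 in silica lungs and at 6.48, 6.49 and 6.49 in air lungs, at least 1.02-fold higher, a step just over the floor that did not pass the threshold (limma adjusted p = 0.0788). It met the detection filter only through the silica lungs, so the filter itself sets its groups apart, and its separation and p are given as a description. Without it, the members whose silica values all lay above the air values were 4 (Tnfsf13, Ifngr2, Tnfrsf4 and Tnfrsf21), and those whose silica values all lay below were 2 (Il15 and Il6r); over all probes tested the shares were 4.3% and 3.81%, probes that met the filter in the same way included. The receptors Il17re, for interleukin-17C (-0.20 ± 0.084), Il21r, for interleukin-21 (0.16 ± 0.063), and Il4r, for interleukin-4 and interleukin-13 (0.087 ± 0.037), did not pass.

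Colony stimulating factors and the leukaemia inhibitory factor and oncostatin M family held no member past the threshold. Csf1, the growth factor of macrophages, was at 7.37, 7.69 and 7.87 in silica lungs and at 7.33, 7.48 and 7.63 in air lungs. The ranges overlapped (0.20 ± 0.080, limma adjusted p = 0.123); without silica replicate 1 the adjusted p was 0.0251. Csf2, which alveolar macrophages need to mature, had a log2 fold change of -0.018 ± 0.017, and Il34, a second ligand of the Csf1 receptor, -0.077 ± 0.031. The receptors Lifr (-0.048 ± 0.020) and Osmr (0.015 ± 0.014) were dim and did not pass, nor did Psmg2 (-0.020 ± 0.037).

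**Figure D1:**
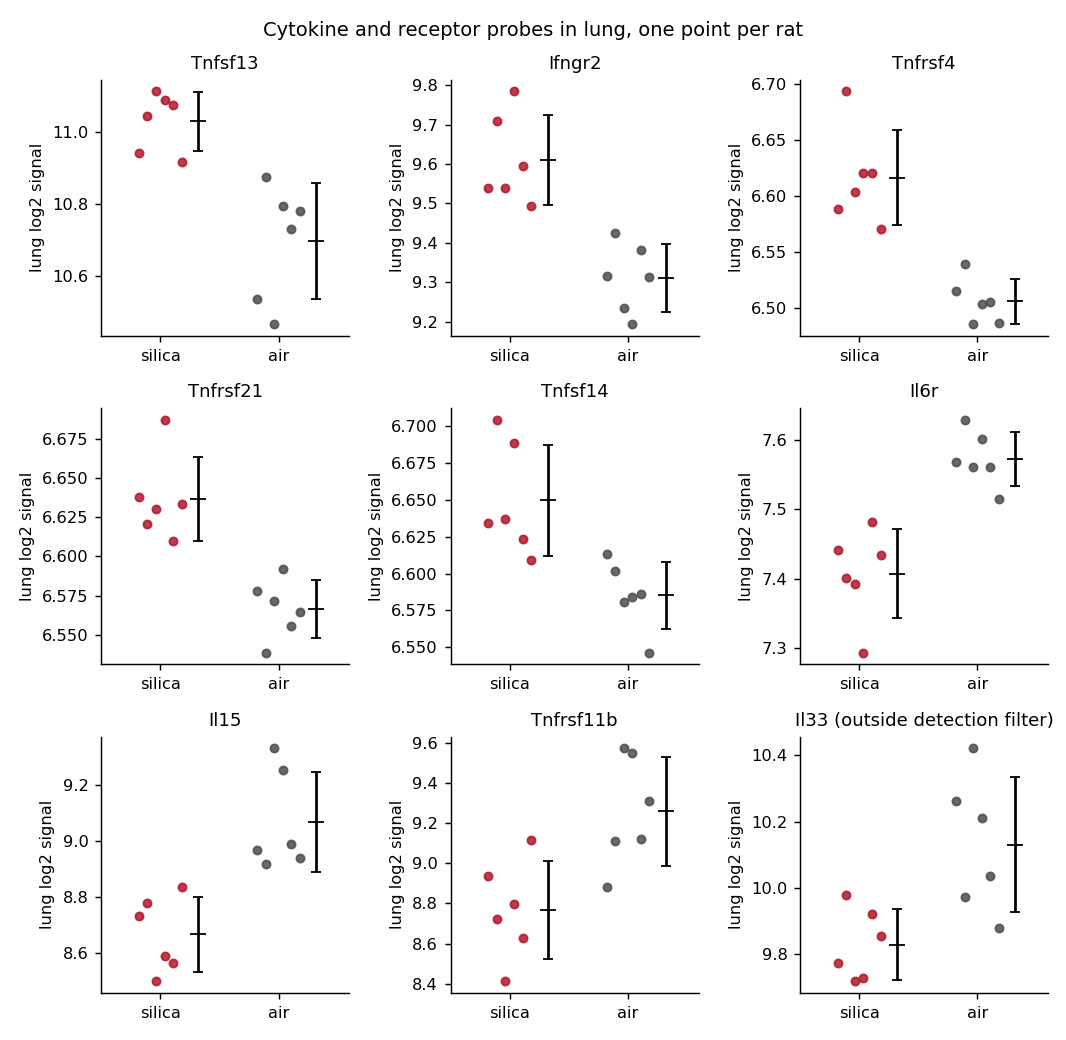
Lung log2 signal of the 8 members past the threshold and of Il33, 1 point per rat, silica left and air right, with mean ± SD (n = 6) beside the points; each panel has its own vertical range. Silica and air points do not overlap for Tnfsf13, Ifngr2, Tnfrsf4, Tnfrsf21, Il6r and Il15.

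**Figure D2:**
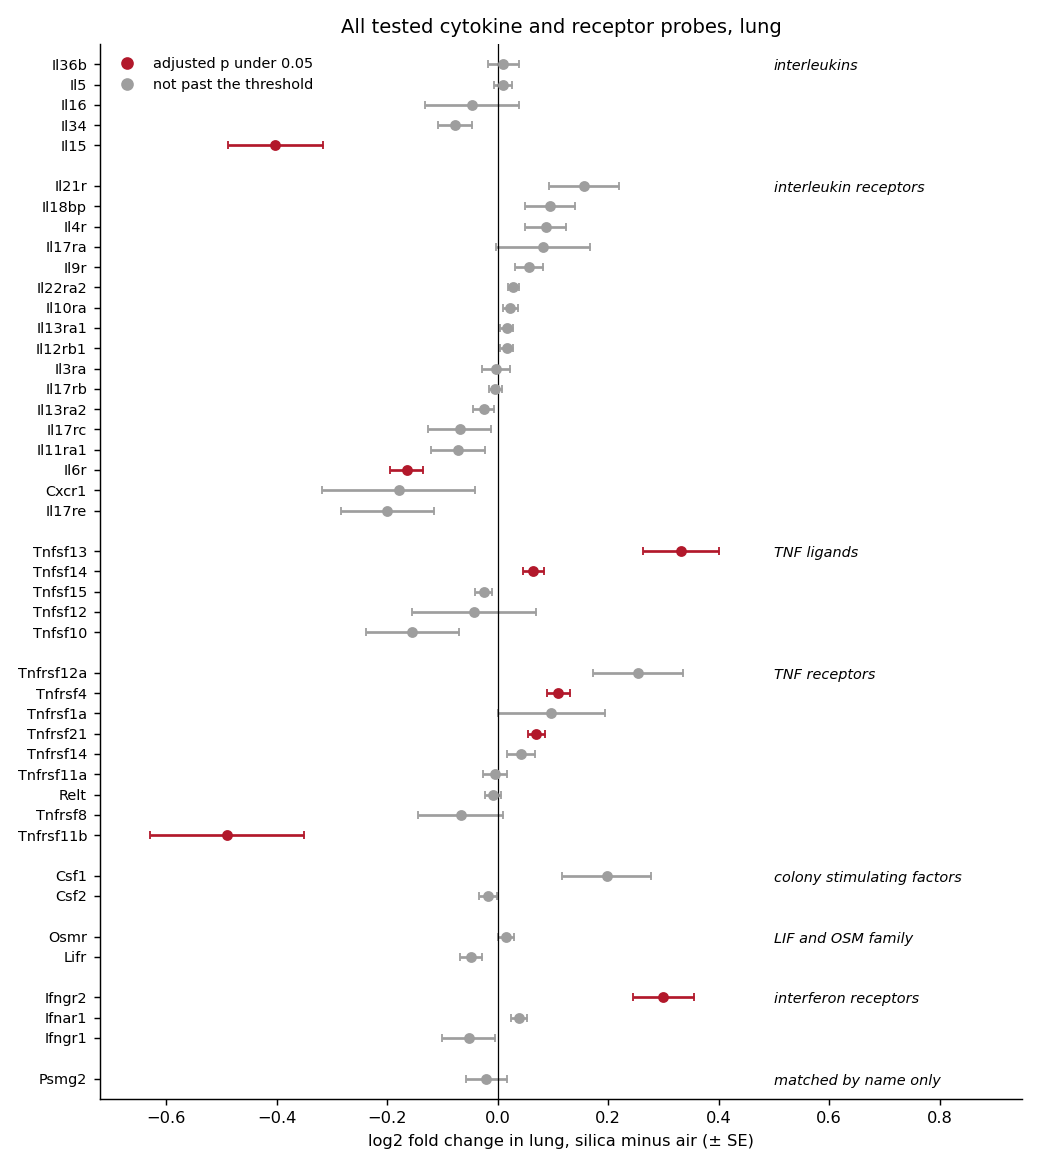
Log2 fold change in lung, silica minus air, with standard errors, for the 44 tested members by class; red marks the 8 with a limma adjusted p under 0.05. Most points lie near 0, and Tnfrsf11b at -0.49 and Tnfsf13 at 0.33 lie farthest out on each side.

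The promoters of 4 members that changed are shown because the signals described above reach genes through NF-kB and STAT sites. Each is the 250 bases before a start listed for the gene in RefSeq, build GRCr8, read 5′ to 3′ on the gene's strand: Ifngr2 at chr11:44265453-44265702 (plus strand), Tnfsf14 at chr9:2160087-2160336 (minus strand), Il15 at chr19:42544456-42544705 (plus strand) and Il6r at chr2:177645210-177645459 (minus strand). Capitals mark matches to the NF-kB consensus, of 10 letters, or to the STAT6 motif, TTC and GAA with 4 free bases between.
Ifngr2: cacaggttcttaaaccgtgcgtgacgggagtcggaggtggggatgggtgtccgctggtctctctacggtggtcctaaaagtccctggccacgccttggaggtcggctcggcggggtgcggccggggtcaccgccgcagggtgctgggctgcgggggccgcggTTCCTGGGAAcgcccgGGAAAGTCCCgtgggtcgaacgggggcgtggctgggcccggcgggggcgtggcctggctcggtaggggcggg
Tnfsf14: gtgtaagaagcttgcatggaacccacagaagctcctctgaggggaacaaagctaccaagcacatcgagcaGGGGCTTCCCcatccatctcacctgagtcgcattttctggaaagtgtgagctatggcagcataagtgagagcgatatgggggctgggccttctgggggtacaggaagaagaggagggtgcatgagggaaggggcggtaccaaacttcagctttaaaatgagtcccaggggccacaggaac
Il15: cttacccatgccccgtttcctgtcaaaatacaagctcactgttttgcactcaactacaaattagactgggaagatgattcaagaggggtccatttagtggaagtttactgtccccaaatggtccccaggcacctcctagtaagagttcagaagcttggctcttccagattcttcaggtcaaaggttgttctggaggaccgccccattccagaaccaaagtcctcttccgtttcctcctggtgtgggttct
Il6r: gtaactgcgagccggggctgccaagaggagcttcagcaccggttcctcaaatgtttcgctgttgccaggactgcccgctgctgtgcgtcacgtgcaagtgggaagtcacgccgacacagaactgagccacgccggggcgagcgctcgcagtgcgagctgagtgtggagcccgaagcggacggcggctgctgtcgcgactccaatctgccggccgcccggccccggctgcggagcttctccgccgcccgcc

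Both strands were searched for the NF-kB consensus, the STAT motif (TTC and GAA with 3 free bases between), the STAT6 motif and the interferon regulatory factor motif (GAAA, 2 free bases, GAAA). Ifngr2 held an NF-kB match 72 bases and a STAT6 match 88 bases before the start, without overlap, and Tnfsf14 held an NF-kB match 180 bases before it. The windows of Il15, Il6r, Tnfsf13, Tnfrsf4 and Tnfrsf21 held none of the 4 motifs, and no window was available for Tnfrsf11b. Of 65 member promoters, of 62 genes, 9 held the NF-kB consensus (13.8%), against 4.24% of 33469 promoters of the same length; 6 held the STAT motif (9.23% against 7.67%), 7 the STAT6 motif (10.8% against 6.25%) and 5 the interferon regulatory factor motif (7.69% against 3.41%). These are matches of letters and were not tested as sites. Of 33460 windows checked, 19334 lay directly before the start of the gene as a whole, and the others were kept.

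The genes that relay these signals inside the cell were described from lists. Over all probes tested in lung, 7.59% were higher and 8.53% lower. Of 24 tested JAK, STAT and SOCS genes, 2 rose in lung, none fell and 22 did not pass; the median log2 fold change was 0.022. Jak3, the kinase of the shared interleukin-2 receptor chain, rose 1.57-fold (0.65 ± 0.082, limma adjusted p = 0.000703), and Jak2, which is bound to Ifngr2, rose 1.23-fold (0.30 ± 0.066, limma adjusted p = 0.0112). Of 20 tested genes of TNF receptor and NF-kB signalling, 7 rose, 1 fell and 12 did not pass, with a median of 0.018. The largest increases were in the inhibitor of NF-kB Nfkbib (0.39 ± 0.073), the ubiquitin ligases Birc2 (0.37 ± 0.053) and Birc3 (0.34 ± 0.061) and the NF-kB subunit Nfkb2 (0.31 ± 0.079), while the subunit Rela fell (-0.21 ± 0.062).

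Of 17 tested cytokine and receptor genes of the same families whose names lie outside the rule, 1 rose, 3 fell and 13 did not pass. The shares over all probes tested in lung were 7.59% higher and 8.53% lower. Ltb, lymphotoxin beta, which acts through a receptor that also binds Tnfsf14, rose 1.69-fold (0.76 ± 0.10, limma adjusted p = 0.00086), more than any member. Kit, the stem cell factor receptor, its ligand Kitlg and the death receptor Fas fell by 0.17, 0.13 and 0.13 on the log2 scale. None of the genes of these 3 lists was called in blood.

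Markers of several cell types moved in the same lungs, where 7.59% of all probes tested were higher and 8.53% lower. The summed signal of the macrophage list was 4855 to 6696 in silica lungs and 3156 to 4283 in air lungs, with 4 of 6 tested genes higher. That of the T cell list was 2376 to 3834 in silica lungs and 1641 to 2409 in air lungs, with 3 of 9 tested genes higher, and that of the neutrophil list was 2593 to 5096 in silica lungs and 1158 to 2080 in air lungs, with S100a8 alone called of 5. The endothelial list summed to 7244 to 9508 in silica lungs and 10729 to 12656 in air lungs, with all 5 tested genes lower, whereas no gene of the B cell or natural killer lists was called. The fibroblast and smooth muscle list summed to 2845 to 4951 in silica lungs and 3984 to 5089 in air lungs, and 2 of 6 tested genes were lower, Inmt (-0.58) and Pdgfra (-0.39). Of 5 tested mast cell and basophil genes, Cpa3 (0.14) and Tpsab1 (0.11) were higher and Kit (-0.17) lower, with sums of 636 to 676 in silica lungs and 618 to 665 in air lungs. Of 6 tested epithelial genes, Sftpa1 (0.24) was higher and Ager (-0.24) and Hopx (-0.21) were lower, with sums of 67687 to 74200.1 in silica lungs and 68298 to 72962 in air lungs. No marker stood at 0, since the values are intensities, and S100a9 was the defining marker undetected throughout. In whole tissue, fewer cells of a type and less RNA per cell cannot be told apart, and the part of these shifts in the member results was not tested.

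How firmly the lung calls held depended on the scaling. When each array was scaled to a common median instead of quantile normalized, calls over all probes numbered 537 in place of 1820, 57.9% of them higher in place of 47.1%, and 2 members remained higher (Tnfrsf4 and Tnfrsf21) and 1 lower (Il15). All 8 members kept their direction there, but Ifngr2, Tnfsf13, Tnfsf14, Tnfrsf11b and Il6r missed the threshold, Il6r by most (-0.11, adjusted p = 0.509). With the authors' deposited normalized values, the same 8 members were called, and Tnfrsf12a with them.

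Il33, a nuclear alarmin of barrier cells that signals through Il1rl1, was bright in lung but lay outside the filter. Its deposited detection p was under 0.05 in 2 silica and 3 air lungs, although its raw signal of 856 or more was far above 72.6, the highest undetected signal in lung among probes with whole bead numbers. Its row held fractional bead numbers, as did 683 of 21792 rows, among them the members Il12rb1, Il17rb and Il17rc. Il33 was at 9.72, 9.81 and 9.98 in silica lungs and at 9.88, 10.12 and 10.42 in air lungs. The ranges overlapped, and the mean was 1.23-fold lower after silica (-0.30 ± 0.087). With a filter on the signal, chosen after seeing the data, the limma adjusted p was 0.0337 (0.0158 to 0.0758 when 1 rat was left out), and with no filter it was 0.0692. Its receptor Il1rl1 was undetected on all arrays.

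In blood, none of the 31 tested members passed the threshold, nor did any of the 7864 probes tested (0%). At an unadjusted p under 0.05 there were 10 members, 32.3% of those tested, against 8.65% of all probes, and 9 of the 10 were higher after silica. Over all probes with such a p, 362 were higher and 318 lower. In none of the 31 tested members did the silica and air groups separate, while 0.381% of all probes tested had every silica value above air and 0.216% every one below. Il18bp, outside the filter and near the floor, had every silica value above air (6.442 to 6.493 against 6.384 to 6.437). Without the 3 arrays that stood apart, 10 members, not necessarily the same ones, had an unadjusted p under 0.05. The other settings called between 0 and 18 probes in all, and the member that passed in any of them was Tnfsf14, without silica replicate 4 (limma adjusted p = 0.0219).

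Tnfsf14 had the smallest p of the members. It was at 6.76, 6.87 and 6.91 in silica blood and at 6.69, 6.72 and 6.79 in air blood. Silica replicate 4 lay below the highest air sample, the other 5 above it, and the fold was 1.10 (0.13 ± 0.026, limma adjusted p = 0.163). Members detected on no blood array had values of 6.32 to 6.44, so the folds of dim blood probes are compressed as in lung. Normalized together with the lung arrays, the same air blood samples of Tnfsf14 were at 7.45, 7.55 and 7.74. Tnfrsf1a was at 7.67, 7.86 and 8.35 in silica blood and at 7.07, 7.45 and 7.81 in air blood, with overlap and the largest fold, 1.40 (0.49 ± 0.15, limma adjusted p = 0.338). Il6r, with 6.97, 7.02 and 7.12 in silica blood and 6.85, 6.89 and 7.004 in air blood, had a log2 fold change of 0.12 ± 0.035. Csf1 had 0.16 ± 0.047 and Il22ra2 0.080 ± 0.027, each with overlapping groups.

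The other members with an unadjusted p under 0.05 were Ifngr1 (0.30 ± 0.12), the interleukin-17 receptor Il17ra (0.23 ± 0.082), Il36b (0.18 ± 0.074) and the interleukin-12 receptor chain Il12rb1 (0.043 ± 0.015), all with higher means after silica, and the interleukin-2 receptor chain Il2ra (-0.033 ± 0.012), with a lower one. They are named because their count is given, after their values were seen. Neutrophil markers had a summed signal of 5627 to 7544 in silica blood and 3883 to 5619 in air blood, without overlap; their median log2 fold change was 0.32, and none of the 5 tested was called. Summed T cell markers were 4808 to 5810 in silica blood and 5002 to 5875 in air blood. The part of neutrophil markers in the member values was not tested.

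**Figure D3:**
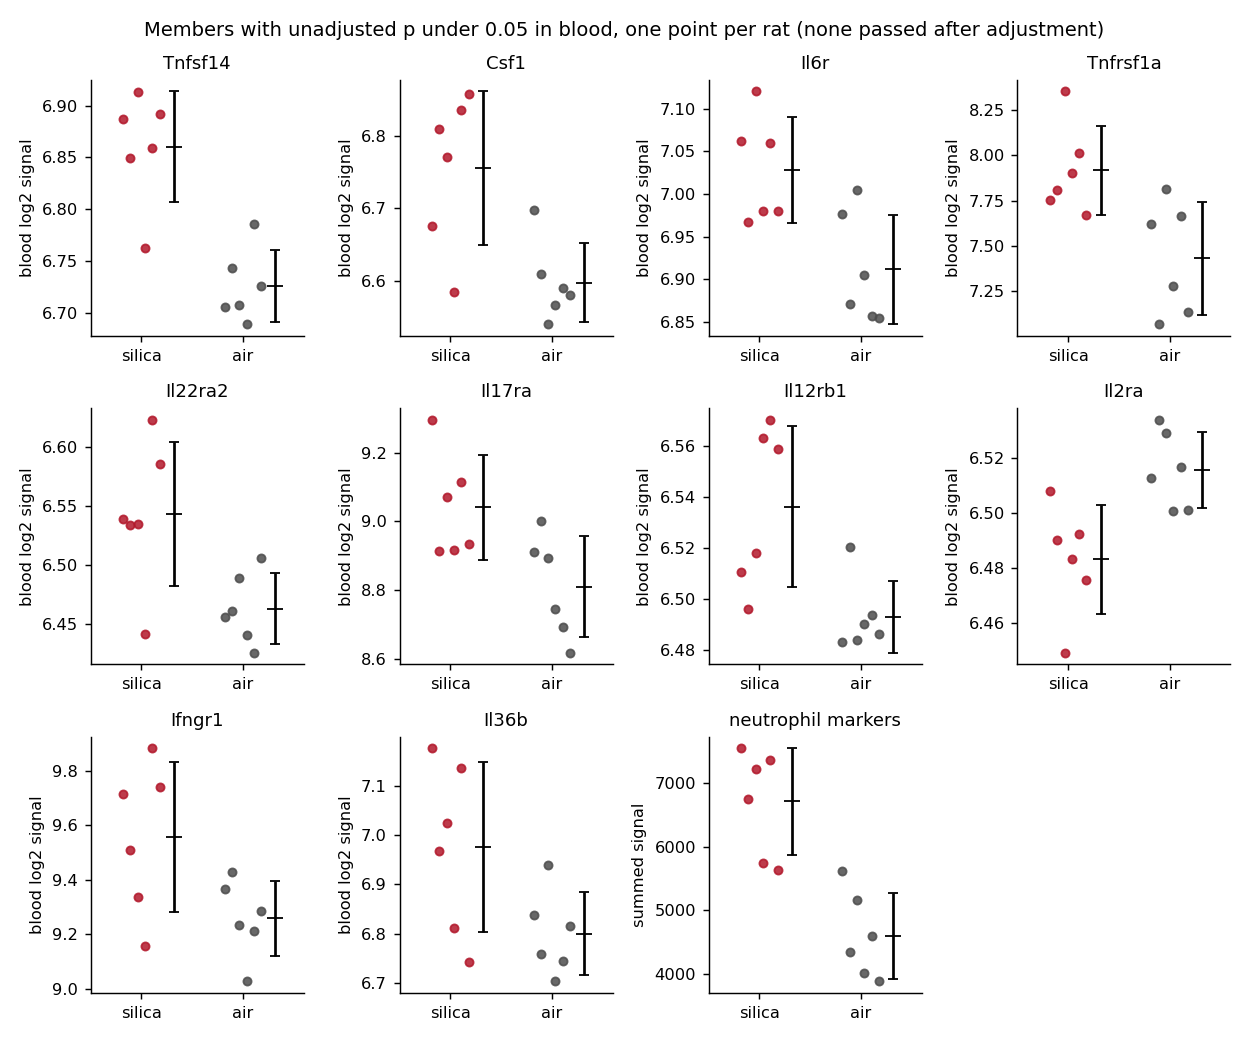
Blood log2 signal of the 10 members with an unadjusted p under 0.05, 1 point per rat, silica left and air right, with mean ± SD (n = 6), and the summed signal of the neutrophil markers in the last panel. Silica and air points overlap in each of the 10 member panels and not in the neutrophil panel.

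A difference between the effects of silica in lung and blood was sought within rats, by subtracting a rat's blood log2 value from its lung value after the 24 arrays were normalized together. Of 28 members tested in both tissues, 2 passed (7.14%), against 3.5% of the 7594 probes tested, and both had a more negative effect in lung than in blood (over all probes 1.26% were more negative and 2.24% more positive). At an unadjusted p under 0.05 there were 9 members (32.1%, against 16.4%). For Il6r the lung minus blood value was -1.35, -1.19 and -1.10 in silica rats and -1.05, -0.81 and -0.74 in air rats. Every silica rat lay below every air rat, and the difference of effects was -0.33 ± 0.071 (limma adjusted p = 0.0179). It was lower in lung and had a positive, uncalled log2 fold change in blood. The adjusted p was 0.0141 to 0.0457 when 1 rat was left out, 0.00355 with each tissue normalized alone, and 0.051 without the 3 rats whose blood arrays stood apart.

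For Tnfsf14 the lung minus blood value was -1.49, -1.41 and -1.10 in silica rats and -1.23, -1.05 and -0.94 in air rats. The ranges overlapped, and the difference of effects was -0.31 ± 0.075 (limma adjusted p = 0.0377). With each tissue normalized alone it was -0.070 (adjusted p = 0.366), the effects being 0.065 in lung and 0.13 in blood, and the call was lost in 9 of 12 fits that left out 1 rat. The next members by p did not pass: Ifngr1 had a difference of -0.26 ± 0.076 (limma adjusted p = 0.0789), Tnfsf13 0.49 ± 0.17 (0.140) and Il22ra2 -0.29 ± 0.10 (0.157). Without silica replicate 4, Csf1, Ifngr1 and Il22ra2 passed as well, and without the 3 rats Il15 was the only one that did (-0.49, adjusted p = 0.0358).

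**Figure D4:**
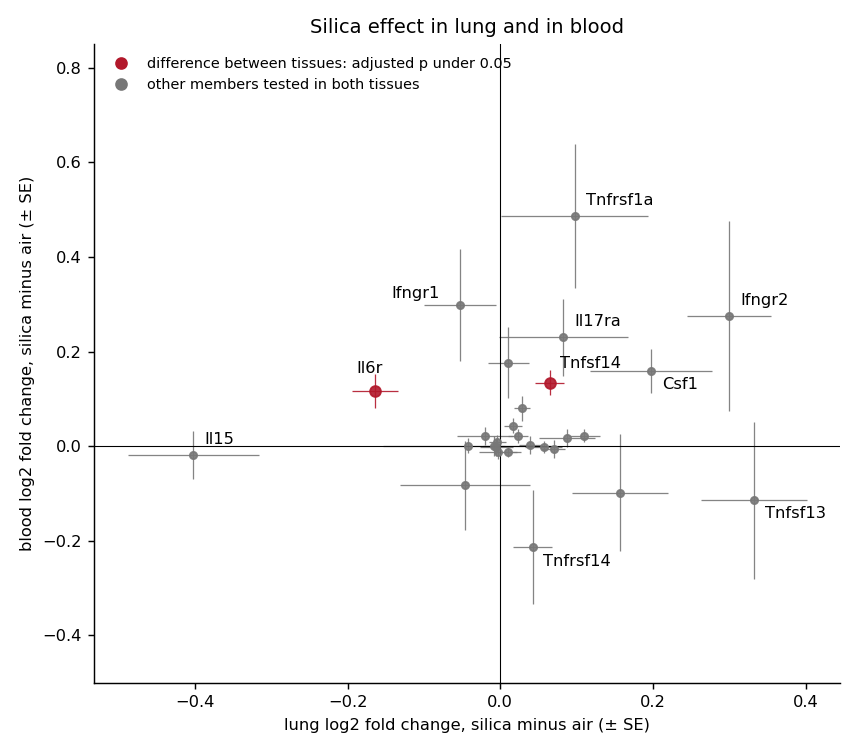
Log2 fold change after silica in lung (horizontal) and blood (vertical), with standard errors, for the 28 members tested in both tissues, each tissue normalized alone; red marks Il6r and Tnfsf14, whose effects differed between tissues in the paired test. Il6r is the red point with a negative lung and a positive blood value.

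Levels in air rats were also compared between lung and blood. Of 41 members detected on all 6 air arrays of at least 1 tissue, 15 were higher in lung than in blood, 20 were lower and 6 did not pass (85.4% called, against 78.7% of 10166 probes, of which 42.6% were higher and 36.1% lower). The median lung minus blood difference was -0.11 over these members and 0.035 over all probes. A member could enter through 1 tissue alone, so the filter itself favours a difference towards that tissue. Of the 20 members detected on all air arrays of both tissues, 2 were higher in lung and 14 lower. Over all 6207 such probes, 2058 were higher and 3131 lower. Tnfrsf11b had the largest difference towards lung, with 8.23, 8.54 and 8.89 in air lungs against 6.36, 6.39 and 6.40 in air blood. No air blood array detected it, so it was at least 4.34-fold higher (limma adjusted p = 6.81e-07). It met the filter only through the lung arrays, so its separation and p are given as a description. Cxcr1 (3.40-fold) and Il17re (2.27-fold) were also higher in lung, but each was detected on only 1 of 6 air blood arrays. Their folds are thus set against values mostly not above background, and both met the filter only through the lung arrays. Tnfsf13 (1.81-fold), detected on all 6 air blood arrays, and Tnfsf12 (1.69-fold), detected on 5, were higher in lung as well.

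Tnfrsf14, the receptor of Tnfsf14, had the largest difference towards blood: it was at 6.49, 6.52 and 6.53 in air lungs and at 9.56, 9.77 and 9.999 in air blood (-3.26 ± 0.061, limma adjusted p = 9.94e-09). Il21r, found on lymphocytes, had a difference of -3.03, Il17ra -2.31, the T cell chemoattractant Il16 -1.78 and Ifngr2 -1.39. These directions depend on how lung and blood are put on one scale. With arrays scaled to a common median, the median of all probes was 0.41, 87.2% of calls were higher in lung in place of 54.1%, and the members split into 23 higher and 11 lower. Ifngr2 then had a difference of 0.40 and Il16 of -0.097, and neither passed, while the other 8 members named here kept direction and call. Extraction and globin depletion cannot be told apart from tissue here.

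**Figure D5:**
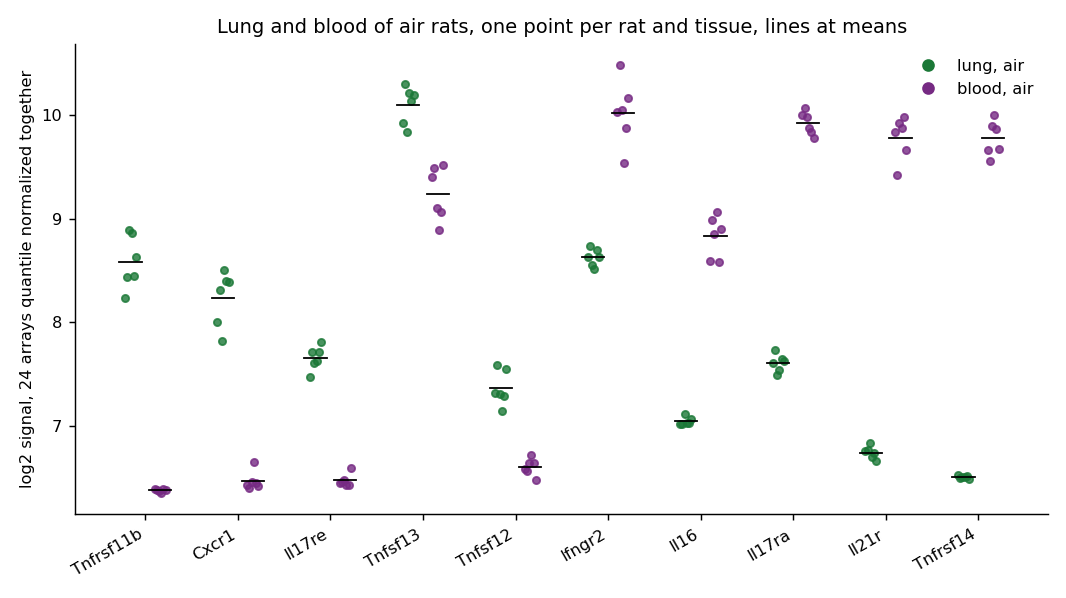
Log2 signal in lung (green) and blood (purple) of the 6 air rats for the 5 members with the largest differences in each direction, with lines at the means; the 24 arrays were quantile normalized together. Tnfrsf11b, at the left, lies high in lung and Tnfrsf14, at the right, high in blood.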

How the data were processed

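Lung and blood RNA of 12 rats was measured on arrays. The authors deposited, per the file headers, an average bead signal per probe and array, an intensity that is not normalized, with a detection p-value and a number of beads. The deposited normalized values are on a log2 scale in blood and a log-like score in lung; the submitters' processing notes list the tools BeadStudio, limma and lumi with no version. Other deposited columns (bead standard errors) were not used.

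The deposited intensities were processed in R 4.3.3 with limma 3.58.1: neqc within each tissue (normal-exponential background from detection p-values, offset 16, quantile normalization, log2), then lmFit and eBayes, silica against air, two-sided, with no block. Tests between tissues used neqc of all 24 arrays and the lung minus blood value of every rat. Probes had to be detected (p under 0.05) on 6 or more of 12 arrays (between tissues in air rats, on all 6 air arrays of at least 1 tissue). A group with no detected array has only a bound, written "at least": the mean of the bright group is divided by that of the other, in which each array's value is raised to its lowest detected signal if below it. The fits were tested on simulated data. The number of arrays limits the precision.

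Members, gene lists and tests were chosen with earlier results of these data known. Named genes are all members called in lung, the 5 smallest p in blood and between tissues, the 5 largest differences each way between air lung and air blood, 2 of each class with no call, and members detected in every sample of one group and none of the other; further members given with values were chosen after these were seen. Of the members, 75 were named by symbol and 9 by synonym or identifier in RefSeq. Replicate numbers belong to different rats in silica and air, so they were not used as pairs. The correlation of deviations between same-numbered lungs ran from -0.29 up to 0.18, and for blood from -0.46 up to 0.62, so not every pair was above 0.1. Whether some numbers shared a batch cannot be told from this range. Labels do not give chips.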

Additional observations from a re-analysis of the deposited data

Results flagged for a closer look

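A total of 3 results stand out for a single sample; 84 groups of 6 rats were looked at, and chance alone gives about 1 in 20. Lifr in lung had air replicate 1 at 6.52 log2, far below the next air lung at 6.59; without it the limma adjusted p of its lower value after silica was 0.0499. Tnfrsf21 in lung had silica replicate 4 at 6.69, above the next silica lung at 6.64, and its call held without that rat. Psmg2 in blood had air replicate 6 at 6.57, above the next air sample at 6.50.

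Il6r and Tnfsf14 had effects of silica that differed between lung and blood, by -0.33 and -0.31 on the log2 scale in the paired test. With each tissue normalized alone Tnfsf14 did not pass, and its call was lost in 9 of 12 fits that left out 1 rat. Il33 gave a lung log2 fold change of -0.30 in data outside the detection filter.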

How the results depend on the processing

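The counts of 5 higher and 3 lower members in lung were 2 and 1 with median scaling, 8 and 3 with a trended, robust variance model (adding Ifnar1, Il22ra2 and Tnfrsf12a), 4 to 6 and 2 to 4 when 1 rat was left out, and 4 and 1 with the replicate number as a block, a number shared by different rats. Il22ra2 met the detection filter only through the silica lungs, so its call with the trended, robust model is a description. In blood, 0 higher became 1 without silica replicate 4, with a range of 0 to 1 over the rats left out, and stayed 0 in the other settings, the replicate block included. The 2 members with a more negative effect in lung were 1 with each tissue normalized alone, 1 without the 3 rats, 2 with no replicate block and 1 to 5 when 1 rat was left out. Between air lung and air blood, 15 higher and 20 lower members were 23 and 11 with median scaling, 2 and 14 among those detected in both tissues, and 16 and 20 with no replicate block. Psmg2, at -0.020 in lung, turned to 0.029 with median scaling and ran from -0.044 to 0.000378 when 1 rat was left out (above 0 without air replicate 1), and Ifngr2 turned to 0.40 between air lung and air blood with median scaling; the cause was not tested. Of 539 values recomputed for named members, 489 kept direction and side of the threshold, 39 lost the call, 8 gained it and 3 reversed. A chip block was not run, because no source used here gives the chips. Dim probes near the floor limit what can be seen: 26 members gave no signal in lung and 36 in blood. The lung folds of Tnfrsf4, Tnfrsf21, Tnfsf14 and Il22ra2 are compressed there. So are the folds of dim members in blood, Tnfsf14 and Csf1 among them.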

Other observations

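Among the 5 members higher in lung, silica replicate 6 had the lowest silica value in 4 and silica replicate 5 in 1; silica replicates 2 and 4 each had the highest in 2. Among the 3 lower members, silica replicate 3 had the lowest value in 2 and silica replicate 4 in 1. Silica replicate 6 also had the lowest score of the silica lungs on the first component, at 4.22.

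Rows with fractional bead numbers carried detection p-values at odds with their signal more widely than Il33: of 683 such rows, 199 in lung and 143 in blood were undetected on some array on which their signal was above the highest undetected signal of the rows with whole bead numbers (72.6 in lung and 75.2 in blood). Of the 4 members with such rows, Il33 alone was brought into the lung test by a filter on signal; 4 dim members left it.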
